A study of Mus musculus with 4 samples.

Results

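The genes described here are the type I interferon response genes of mouse bone marrow progenitors, a set of 44 interferon-stimulated genes chosen by name, without the Ifitm family and without MHC genes. Of these, 39 had a probe set that the platform annotation gave to a single gene, out of 19938 genes measured in that way on the arrays. The probe sets of Isg15, Ifi204, Gbp2 and Igtp were shared with Gm9706, Ifi211, Gbp2b and Irgm2, and Ifi44 was not named by the annotation, so these 5 genes were not analysed here. The members were chosen by name, but with earlier results of these data known, so the list is not fully independent of the values below.

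The study hybridised RNA from sorted bone marrow cells to 4 Affymetrix arrays, and each sample was a pool of cells sorted from 5 to 30 mice of the C57BL/6 background. A pair of arrays held Hdac3-null LSK/Flt3- cells of the genotype Vav-Cre/Hdac3Flox/-, in which Cre under the Vav promoter, active in blood cells, removes the floxed allele and the other allele is already lost. The remaining arrays held wild-type LSK/Flt3- cells (1 array) and wild-type LSK/Flt3+ cells (1 array). LSK cells are lineage-negative marrow cells with Sca-1 and Kit on their surface; those without Flt3 include the stem cells, and those with Flt3 are multipotent progenitors that lean towards lymphoid fates. The labels give no age, no treatment and no statement of whether the null samples came from separate mice. The p-values below therefore measure only the spread between the 2 null arrays, which may be technical, and each wild-type group is a single array whose own spread is unknown.

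Type I interferons act through the receptor IFNAR, the kinases JAK1 and TYK2, and a transcription factor complex with STAT2 and IRF9 that binds a short promoter element called ISRE and switches on a broad antiviral program. Many products of that program destroy viral RNA, block its translation or hold back budding virus, and others, such as STAT2, IRF7 and IRF9, feed the signal back. Hematopoietic stem cells also respond to interferon, which can bring them into cycle, and they are known to keep part of the program on without infection. HDAC3 is a histone deacetylase that works in the NCoR and SMRT corepressor complexes.

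Several features of the arrays bear on all values. The array medians were 5.60 and 5.30 on null replicates 1 and 2, 5.32 on the wild-type LSK/Flt3- array and 5.36 on the wild-type LSK/Flt3+ array, so null replicate 1 had the highest median. The 9 measured erythroid and megakaryocyte markers had a mean level of 6.62 on null replicate 1 and between 7.46 and 7.92 on the others. Null replicate 1 was the lowest array in only 4 of them. Car1 had the widest gap, at 6.44 on null replicate 1, 10.92 on null replicate 2, and 11.81 and 11.37 on the wild-type arrays. Xist, the RNA of the inactive X chromosome, read 10.84 and 9.67 on the null arrays and 4.23 and 3.90 on the wild-type arrays, and the Y-linked genes Kdm5d (8.02 and 7.31 against 8.66 and 8.32) and Eif2s3y (7.33 and 6.08 against 8.05 and 7.85) were lower on the null arrays and lowest on null replicate 2. These genes differed with genotype and between the null replicates, and sex makeup and genotype cannot be told apart. Hdac3 itself read 5.71 and 5.04 on the null arrays, 6.18 on the wild-type LSK/Flt3- array and 6.33 on the wild-type LSK/Flt3+ array (limma adjusted p = 1 in both comparisons). The sources used here do not say where its probes lie relative to the deleted part, so this is no check of the labels. Of the markers of the sort, Kit read between 10.11 and 10.77, and Flt3 read 7.84, 7.02, 9.18 and 10.07. Sca-1, encoded by Ly6a, had no probe set of its own.

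Interferon response genes were for the most part lower on the null arrays than on either wild-type array, by small amounts. Against wild-type LSK/Flt3- cells, 24 of the 39 members (61.5%) were lower on both null arrays, where 19.9% of all genes were, and 2 members (5.13%) were higher on both, where 41.3% of all genes were. The remaining 13 had one null array above and the other below the wild-type value. The median difference over the members was -0.23 on the log2 scale (-0.25 on null replicate 1 and -0.31 on null replicate 2), against 0.09 over all genes (0.15 and 0.03). The largest differences belonged to Oasl2, a protein of the oligoadenylate synthetase family, and Bst2, the tetherin that holds virus at the cell surface. On each null array both genes stood at least 2-fold below the wild-type array. Markers of other cell types moved with genotype on the same arrays. The 12 markers of granulocyte-monocyte progenitors and neutrophils had mean levels of 7.12 and 7.49 on the null arrays, 6.52 on the wild-type LSK/Flt3- array and 6.40 on the wild-type LSK/Flt3+ array. In the respective comparisons 10 and 12 of them were higher on both null arrays, where 41.3% and 35.0% of all genes were. Ms4a3 among them was called higher in both comparisons (limma adjusted p = 0.0321 and 0.00931). The neutrophil genes S100a8 and S100a9 were lower on both null arrays than on the wild-type LSK/Flt3- array (-1.36 and -1.05). The 9 measured B cell markers had mean levels of 5.05 and 4.87 on the null arrays and 5.26 and 5.54 on the wild-type arrays. Of them 4 and 6 were lower on both null arrays, where 19.9% and 25.1% of all genes were. The part of such cells in the interferon values was not tested.

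No member passed the adjusted threshold against wild-type LSK/Flt3- cells: 0 of 39 had a limma p below 0.05 after Benjamini-Hochberg adjustment over all genes, and 0% of all genes were called lower. At an unadjusted limma p below 0.05, 4 members (10.3%) were lower and 0 higher, where 1.30% of all genes were lower. The standard error of a member's difference lay between 0.30 and 0.48, with a median of 0.36, so differences of the size of the median could not be told from 0 for any single gene. Members belong to one pathway and can vary together, so a count over members is not a count of independent observations.

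The share of all genes that were lower on both null arrays depended on how the arrays were scaled. With each array centred on its median, 26 members and 32.8% of all genes were lower on both null arrays than on the wild-type LSK/Flt3- array. With quantile normalization the figures were 27 members and 29.8%, and with cyclic loess 27 members and 31.7%. The members' median stayed below that of all genes under these scalings, at -0.34, -0.31 and -0.31.

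Against wild-type LSK/Flt3+ cells, a comparison that holds the sorted fraction as well as the genotype, 25 of 39 members (64.1%) were lower on both null arrays, where 25.1% of all genes were. Cmpk2 alone (2.56%) was higher on both, where 35.0% of all genes were. The median difference was -0.27 (-0.30 and -0.34 on null replicates 1 and 2), against 0.05 over all genes (0.11 and -0.01). One member, the PYHIN family gene Ifi207, passed limma's adjusted threshold, where 0.281% of all genes were called lower, and 5 members (12.8%) were lower at an unadjusted limma p below 0.05, where 2.31% of all genes were. Both comparisons share the null arrays, so their counts are not independent. Read over all 4 arrays, both null values lay below both wild-type values in 21 of the 39 members (53.8%), where 11.7% of all genes showed this. They lay above both in 0 members, where 4584 of the 19938 genes showed that. With other scalings the counts below both were 24 members and 18.0% of all genes (quantile normalization), 23 and 17.2% (centred arrays) and 24 and 18.9% (cyclic loess). In bulk samples such as these, fewer cells that express a gene and less RNA per cell cannot be told apart.

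**Figure D1:**
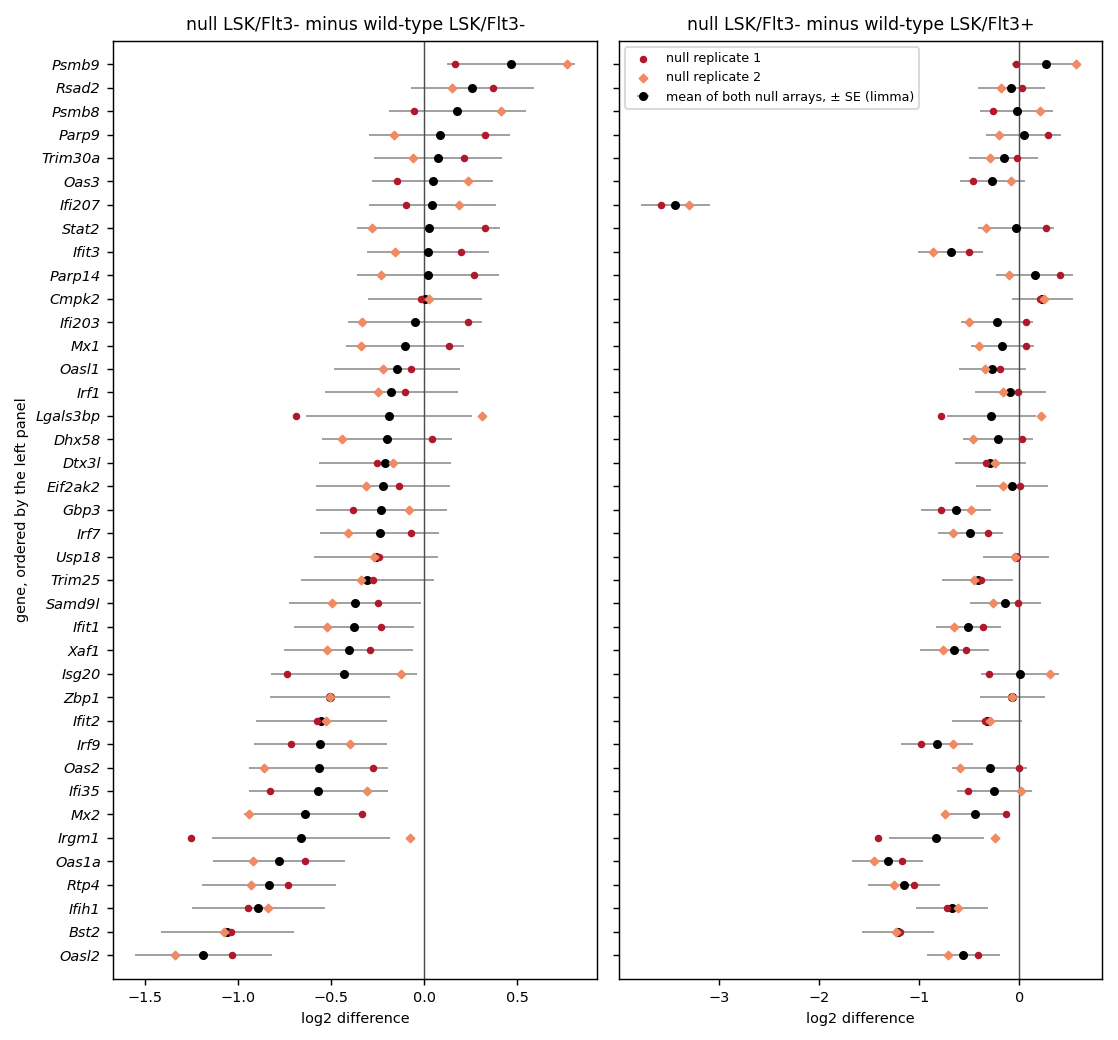
Log2 differences of the 39 measured interferon response genes, null minus wild-type LSK/Flt3- on the left and null minus wild-type LSK/Flt3+ on the right, with genes in the order of the left panel. Red and orange points are the null replicates, black points their mean and bars the standard error from limma; most points lie left of 0 in both panels, Oasl2 and Bst2 lie lowest on the left and Ifi207, at -3.44, stands alone on the right.

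**Figure D2:**
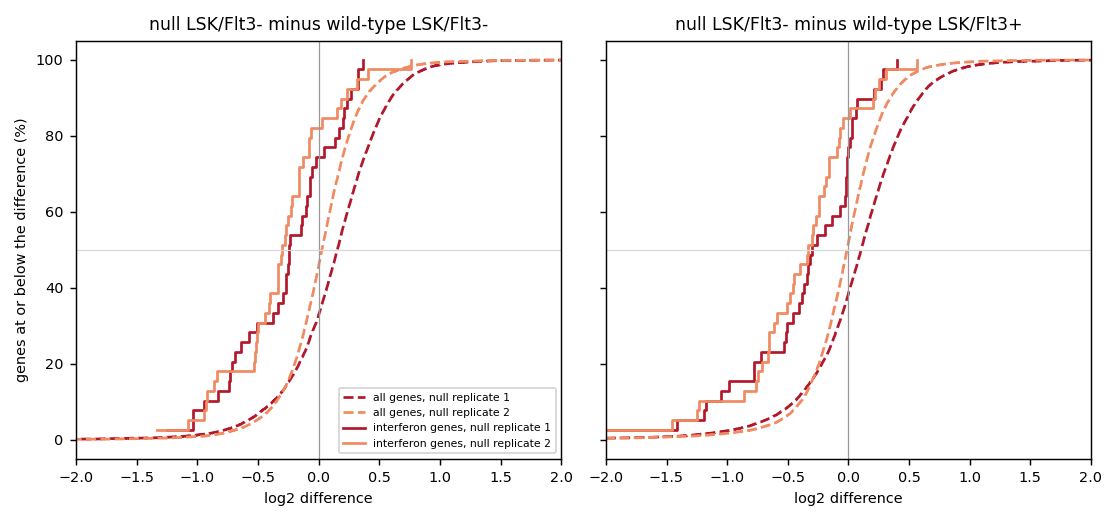
Share of genes (vertical axis) at or below a given log2 difference (horizontal axis, limited to values between -2 and 2) for the 39 members (solid lines) and for all 19938 genes (dashed lines), with null replicate 1 in red and null replicate 2 in orange, in each comparison. The members' curves lie to the left of those of all genes over most of the range, and Ifi207 against wild-type LSK/Flt3+ cells is off the scale.

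The promoters of these genes can carry the ISRE element, and it can be shown in the sequence. The RefSeq promoter windows (build GRCm38.p6, 250 bases before to 50 after the start) covered 30 of the 39 measured members. An ISRE-like motif, spelled GAAANNGAAA on either strand, was found in 14 of the 30 (46.7%), in 26 of 72 other interferon-stimulated genes (36.1%) and in 607 of 15614 measured genes (3.89%). A GAS-like motif, TTCNNNGAA, was found in 8 of the 30 (26.7%) and in 8.99% of measured genes. Among the listed members with a window, a GAS-like match overlapped an ISRE-like one in Bst2 only.

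The stretches shown are a part of those found, from members that differed in how they read on the null arrays. Capitals mark the ISRE-like matches, and all are written 5′ to 3′ in the direction of transcription and end before the start of the gene. The first 4 belong to members that were lower on both null arrays than on the wild-type LSK/Flt3- array, Bst2 (chr8:71537562-71537621, minus strand), Oas1a (chr5:120907526-120907564, minus strand), Irgm1 (chr11:48871421-48871469, minus strand) and Ifit1 (chr19:34640779-34640838, plus strand).
Bst2: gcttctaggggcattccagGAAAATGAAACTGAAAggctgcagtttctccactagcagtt
Oas1a: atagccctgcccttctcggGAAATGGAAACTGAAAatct
Irgm1: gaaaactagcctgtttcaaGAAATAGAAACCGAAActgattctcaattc
Ifit1: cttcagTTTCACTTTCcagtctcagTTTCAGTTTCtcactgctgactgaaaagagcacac

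In Bst2, Oas1a and Irgm1 a pair of matches overlapped, so that GAAA occurred 3 times with 2 bases between, while Ifit1 carried 2 separate matches on the opposite strand. The match nearest the start began 124 bases before it in Bst2, 14 in Oas1a and 24 in Irgm1. The next 4 stretches belong to members that were not lower on both null arrays than on that wild-type array, the PYHIN genes Ifi203 (chr1:173942493-173942552, minus strand) and Ifi207 (chr1:173741816-173741875, minus strand), Oas3 (chr5:120777700-120777759, minus strand) and Rsad2 (chr12:26456538-26456597, minus strand).
Ifi203: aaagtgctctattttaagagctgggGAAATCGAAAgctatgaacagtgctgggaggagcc
Ifi207: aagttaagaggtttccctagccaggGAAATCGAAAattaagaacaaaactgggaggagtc
Oas3: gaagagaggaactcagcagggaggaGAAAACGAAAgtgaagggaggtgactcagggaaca
Rsad2: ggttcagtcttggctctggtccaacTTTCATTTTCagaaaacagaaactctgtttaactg

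Ifi203 and Ifi207, both on chromosome 1, held the same 10 letters at 35 and 41 bases before their starts, yet their levels differed between the arrays as described below. An ISRE-like match was present in 7 of the 19 members with a window that were lower on both null arrays than on the wild-type LSK/Flt3- array (36.8%), and in 7 of the 11 that were not (63.6%). The number of matches did not split the members as the stretches shown do. Ifit3, which was not lower on both null arrays, had 2 matches, and Ifih1 and Eif2ak2, which were, had 1 each, after the start. For the GAS-like motif the counts were 7 of 19 (36.8%) and 1 of 11 (9.09%). These matches are letters in a window and do not show that a factor was bound there.

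Among the signal and transcription factors, 3 of 4 measured genes were lower on both null arrays in each comparison. Of all genes 19.9% and 25.1% were, and each role described here and below holds few genes. The group medians were -0.21 relative to the Flt3- and -0.29 relative to the Flt3+ wild-type array. Irf9, the DNA-binding part of the interferon-activated complex, read 6.18 and 6.50 on the null arrays, 6.90 on the wild-type LSK/Flt3- array and 7.16 on the wild-type LSK/Flt3+ array. Both null values lay below both wild-type values, with differences of -0.56 ± 0.36 (SE) and -0.82 ± 0.36, the latter at an unadjusted limma p of 0.0442 that was lost on adjustment (adjusted p = 1). Irf7, which amplifies interferon production, read 5.05 and 4.70 against 5.12 and 5.36, and Irf1 read 7.16 and 7.01 against 7.26 and 7.18, both with small gaps to the wild-type arrays. The second probe set of Irf1, the only member with more than 1 single-gene probe set, read 6.21 and 6.15 against 6.78 and 6.28. Stat2 had one null array above both wild-type arrays and the other below them (6.91 and 6.30 against 6.58 and 6.64).

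Of the ISG15 system only Usp18, the protease that removes ISG15 and dampens receptor signalling, could be read, at 5.95 and 5.93 on the null arrays, 6.20 on the wild-type LSK/Flt3- array and 5.97 on the wild-type LSK/Flt3+ array. The null values were lower than each wild-type value, but by -0.26 ± 0.33 and -0.03 ± 0.33, within the error.

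Among the RNA and DNA sensors, Ifih1, which encodes the double-stranded RNA sensor MDA5, read 7.21 and 7.32 on the null arrays, 8.16 on the wild-type LSK/Flt3- array and 7.94 on the wild-type LSK/Flt3+ array. The groups did not overlap, and the differences were -0.89 ± 0.36 and -0.67 ± 0.36, the former at an unadjusted limma p of 0.0317 (adjusted p = 1). Zbp1, a sensor of Z-form nucleic acid, read 5.49 on both null arrays, 6.00 on the wild-type LSK/Flt3- array and 5.56 on the wild-type LSK/Flt3+ array, so only the first wild-type array stood apart from the rest. Dhx58, which encodes the RIG-I-like protein LGP2, read 5.78 and 5.29 against 5.73 and 5.75. Eif2ak2, which encodes the translation-blocking kinase PKR, read 7.53 and 7.36 against 7.67 and 7.52, and for both genes the null arrays fell on either side of at least one wild-type value.

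The OAS family makes or resembles the enzymes that produce 2′-5′ oligoadenylate, the activator of RNase L. In this family 4 of 5 members were lower on both null arrays than wild-type LSK/Flt3- cells, where 19.9% of all genes were. Relative to wild-type LSK/Flt3+ cells 5 of 5 were lower on both, where 25.1% of all genes were. Oasl2 read 7.27 and 6.97 on the null arrays, 8.30 on the wild-type LSK/Flt3- array and 7.68 on the wild-type LSK/Flt3+ array. Its null mean was 2.28-fold below wild-type LSK/Flt3- cells (-1.19 ± 0.37) at an unadjusted limma p of 0.00881, with an adjusted p of 1 that lay between 0.815 and 1 over 9 other settings. From wild-type LSK/Flt3+ cells it differed by -0.56 ± 0.37. Oas1a read 6.26 and 5.98 against 6.90 and 7.43, again with no overlap. For this gene the Flt3+ array was the highest, and the differences were -0.78 ± 0.36 and -1.31 ± 0.36, the latter 2.49-fold. That difference had an unadjusted limma p of 0.00409 and an adjusted p of 0.414, which lay between 0.189 and 0.415 over 9 other settings. Oas1a also had a probe set shared with Oas1g, which was not read here.

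Oas2 read 6.14 and 5.55 on the null arrays and 6.41 and 6.14 on the wild-type arrays, and Oasl1 read 6.01 and 5.86 against 6.08 and 6.20. In both genes null replicate 2 was the lowest array. Oas3, at 4.77 and 5.15 against 4.92 and 5.23, was the family member whose null values lay on both sides of the wild-type LSK/Flt3- array.

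The IFIT genes have products that bind viral RNA ends and translation factors. Relative to the Flt3- wild-type array 2 of 3 were lower on both null arrays, and relative to the Flt3+ array 3 of 3. Of all genes 19.9% and 25.1% were. Ifit2 read 6.66 and 6.71 against 7.24 and 7.01, and Ifit1 read 5.21 and 4.92 against 5.44 and 5.57. Neither overlapped with the wild-type arrays, but their differences, between -0.55 and -0.32, did not reach an unadjusted limma p below 0.05. Ifit3 read 5.22 and 4.86 against 5.02 and 5.73, with only the Flt3+ array above both null values.

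Of the 9 antiviral effectors, 6 were lower on both null arrays than wild-type LSK/Flt3- cells and 5 than wild-type LSK/Flt3+ cells. Over all genes the shares were 19.9% and 25.1%. Bst2 read 6.83 and 6.80 on the null arrays, 7.87 on the wild-type LSK/Flt3- array and 8.03 on the wild-type LSK/Flt3+ array. The null arrays were 2.08-fold below the first (-1.06 ± 0.36) and 2.31-fold below the second (-1.21 ± 0.36). The unadjusted limma p was 0.0139 and 0.00671, and the adjusted p was 1 and 0.533. Over 9 other settings the adjusted p lay between 0.953 and 1 in the first comparison and between 0.338 and 0.6 in the second, so Bst2 passed in none of them. Bst2 is also a surface marker of plasmacytoid dendritic cells, whose 11 measured markers had mean levels of 5.80, 5.52, 5.65 and 5.89 on the 4 arrays. Siglech, the defining surface receptor of those cells, read 5.25, 4.92, 5.31 and 5.67, but the markers split. Relative to wild-type LSK/Flt3- cells, 3 were lower and 3 higher on both null arrays, where 19.9% and 41.3% of all genes were. Relative to wild-type LSK/Flt3+ cells, 5 were lower and 1 higher, where 25.1% and 35.0% of all genes were. The part of plasmacytoid dendritic cells in the result was not tested.

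Rtp4, a protein that inhibits flavivirus replication and serves as a chaperone of taste and opioid receptors, read 7.62 and 7.42 on the null arrays, 8.35 on the wild-type LSK/Flt3- array and 8.67 on the wild-type LSK/Flt3+ array. The groups did not overlap, with differences of -0.83 ± 0.36 and -1.15 ± 0.36. The unadjusted limma p was 0.0434 and 0.00963, and the adjusted p was 1 and 0.664. Xaf1, which promotes cell death, read 6.23 and 6.00 against 6.52 and 6.76, and Samd9l, which restrains translation and cytokine signalling, read 8.82 and 8.57 against 9.07 and 8.84. Null values lay below both wild-type arrays in these genes, in Samd9l with almost no gap between null replicate 1 and the Flt3+ array.

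Isg20, an RNA exonuclease, read 6.81 and 7.42 on the null arrays and 7.55 and 7.11 on the wild-type arrays, so its null arrays spanned the Flt3+ value. The Mx GTPases, which trap viral ribonucleoproteins, were read for Mx1 at 4.53 and 4.05 against 4.39 and 4.46 and for Mx2 at 4.16 and 3.55 against 4.50 and 4.30. Laboratory mice of this background carry a defective Mx1 gene. Between these genes only Mx2 had both null values below both wild-type values, and all values of both lay below every array median. Rsad2, which encodes viperin, and its neighbour Cmpk2 went the other way or showed no order: Rsad2 read 5.88 and 5.67 against 5.52 and 5.85, and Cmpk2 read 5.01 and 5.06 against 5.03 and 4.80.

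**Figure D3:**
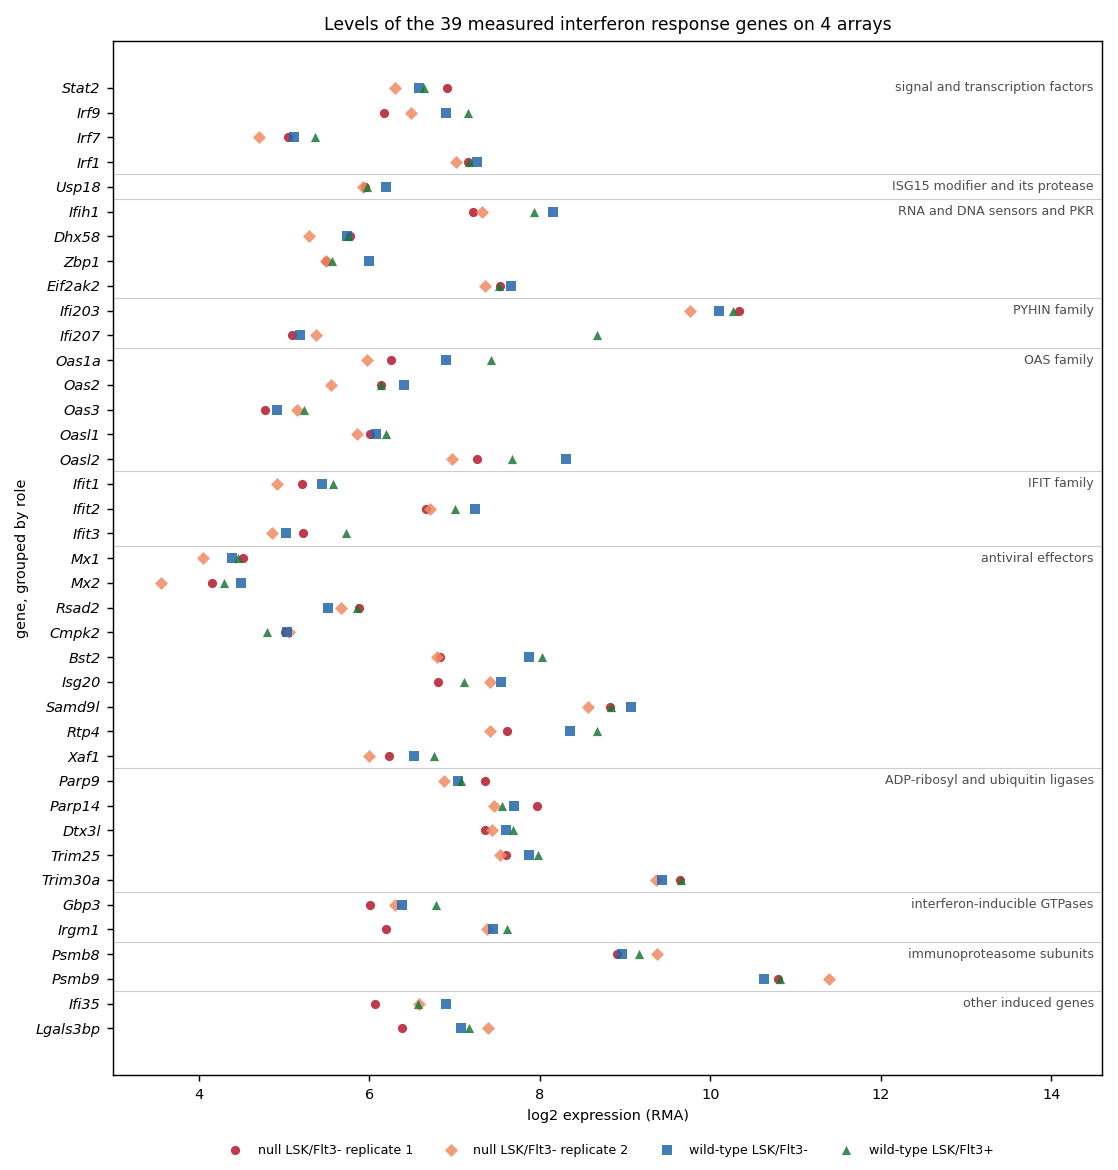
Log2 expression of each measured member on the 4 arrays, grouped by role, with null replicates in red and orange, wild-type LSK/Flt3- in blue squares and wild-type LSK/Flt3+ in green triangles. In Bst2, Rtp4, Oas1a, Oasl2 and Ifih1 both null points lie left of both wild-type points, while Psmb9 has null replicate 2 on the far right and Ifi207 has the Flt3+ point far from the other 3.

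The PYHIN genes, which encode DNA-binding proteins of the interferon-inducible p200 family, split. Ifi203 read 10.34 and 9.77 on the null arrays and 10.10 and 10.27 on the wild-type arrays, with null values on both sides. Ifi207 read 5.09 and 5.37 on the null arrays, 5.19 on the wild-type LSK/Flt3- array and 8.67 on the wild-type LSK/Flt3+ array. Null and wild-type LSK/Flt3- cells did not differ beyond the error (0.04 ± 0.34), whereas null cells were 10.8-fold below wild-type LSK/Flt3+ cells (-3.44 ± 0.34, limma adjusted p = 0.00275, and between 1.29e-05 and 0.00588 over 9 other settings).

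The difference in Ifi207 was one between sorted fractions as well: the wild-type LSK/Flt3+ array stood 3.48 above the wild-type LSK/Flt3- array, a comparison of single arrays without a test. Most markers of macrophages and related cells, 15 of 19, were also highest on the wild-type LSK/Flt3+ array. The 19 measured markers of monocytes, macrophages and conventional dendritic cells had a mean level of 6.46 on the wild-type LSK/Flt3+ array and between 5.32 and 5.43 on the other 3, and 16 of 19 (84.2%) were higher on the Flt3+ than on the Flt3- wild-type array, where 56.6% of all genes were. Of them Csf1r, Adgre1, C1qc and Cd163 were called lower in null than in wild-type LSK/Flt3+ cells, and 12 of 19 (63.2%) were lower at an unadjusted limma p below 0.05, where 2.31% of all genes were. Ccr2, a chemokine receptor of monocytes, lay the other way, at 8.28 and 9.10 on the null arrays against 5.69 and 6.54 on the wild-type arrays. Cd68 was nearly as high on the null arrays (8.02 and 8.38) as on the Flt3+ array (8.54), with 6.95 on the wild-type LSK/Flt3- array. The 3 markers not higher on the Flt3+ than on the Flt3- wild-type array were the conventional dendritic cell genes Xcr1, Clec9a and Zbtb46. Adgre1, the F4/80 antigen, read 4.52, 4.13, 4.21 and 7.17, and the complement gene C1qc read 3.59, 4.05, 4.89 and 8.18, in each case far higher on the Flt3+ array than on the other 3. The part of such cells in the Ifi207 value was not tested.

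**Figure D4:**
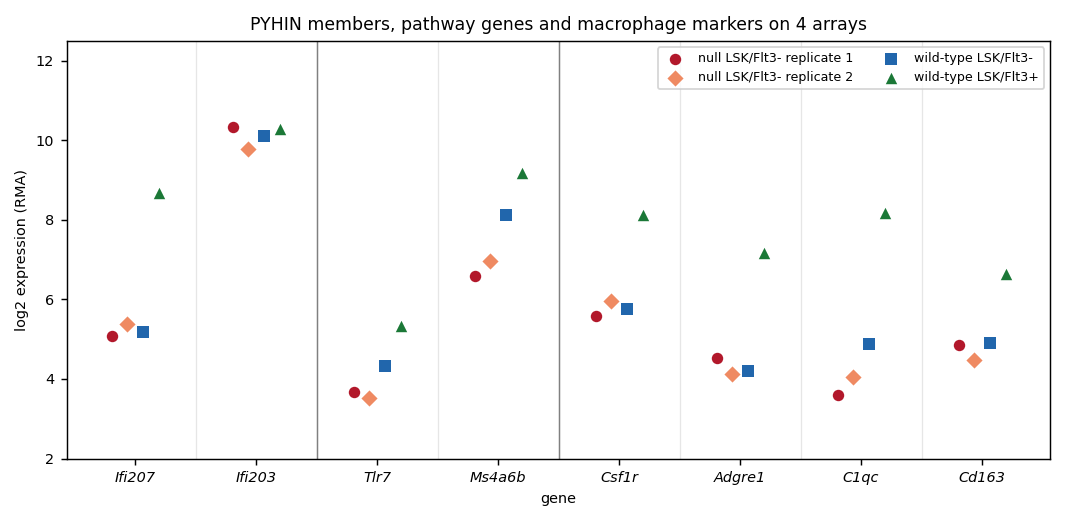
Log2 expression (vertical axis) of Ifi207, its relative Ifi203, the called pathway genes Tlr7 and Ms4a6b and 4 macrophage marker genes on the 4 arrays, 1 point per array. The markers shown are the 4 of 19 called lower in null than in wild-type LSK/Flt3+ cells. Of the 19, 3 that are not shown were higher on both null arrays than on the Flt3+ array, Ccr2 among them. Ifi207, Adgre1 and C1qc are high on the wild-type LSK/Flt3+ array alone (8.67, 7.17 and 8.18), whereas Ifi203 lies between 9.77 and 10.34 on all arrays.

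Of the 5 ADP-ribosyl and ubiquitin ligases, 2 were lower on both null arrays than wild-type LSK/Flt3- cells and 3 than wild-type LSK/Flt3+ cells. Of all genes 19.9% and 25.1% were, and 5 genes are too few to set against those shares. The group medians were 0.02 and -0.16, against 0.09 and 0.05 over all genes. Trim25, the ubiquitin ligase that activates RIG-I, read 7.60 and 7.54 against 7.87 and 7.98, and Dtx3l, the partner of PARP9, read 7.35 and 7.44 against 7.61 and 7.69. Both were below both wild-type arrays, by amounts that did not reach an unadjusted limma p below 0.05. Parp9 itself read 7.36 and 6.88 against 7.04 and 7.08, Parp14 read 7.97 and 7.47 against 7.70 and 7.56, and Trim30a read 9.64 and 9.37 against 9.43 and 9.66. In these 3 genes null replicate 1 was above null replicate 2 and the wild-type arrays fell between or beside them.

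Of the interferon-inducible GTPases that guard against intracellular pathogens, Irgm1 and Gbp3 could be read, and both were below both wild-type arrays. Of all genes 11.7% were. Irgm1 read 6.20 and 7.38 on the null arrays, 7.45 on the wild-type LSK/Flt3- array and 7.62 on the wild-type LSK/Flt3+ array. Most of its difference came from null replicate 1, and its standard error, 0.48, was the largest of the members. Gbp3 read 6.01 and 6.31 against 6.39 and 6.79.

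The immunoproteasome subunits, which cut peptides for MHC class I, had 0 of 2 members lower on both null arrays in either comparison. Of all genes 19.9% and 25.1% were. Psmb9 read 10.79 and 11.39 on the null arrays and 10.63 and 10.82 on the wild-type arrays, and Psmb8 read 8.91 and 9.37 against 8.96 and 9.16. Their differences from wild-type LSK/Flt3- cells were 0.47 ± 0.34 and 0.18 ± 0.37, neither at an unadjusted limma p below 0.05, and Psmb9 and Rsad2 were the 2 members higher on both null arrays than on that array. Of the other induced genes, Ifi35 read 6.06 and 6.59 against 6.89 and 6.57, and Lgals3bp, a secreted galectin ligand, read 6.39 and 7.39 against 7.08 and 7.17, with null arrays on both sides of the wild-type values.

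The null replicates differed by more than 0.5 in 10 of the 39 members (25.6%), where 22.3% of all genes did. Irgm1 and Lgals3bp had the widest gaps. Null replicate 2 was the lowest of the 4 arrays in 23 members and null replicate 1 in 13, against 2 for the wild-type LSK/Flt3- and 1 for the wild-type LSK/Flt3+ array. Over all 19938 genes the lowest array was null replicate 2 in 5425 and null replicate 1 in 3876. It was the wild-type LSK/Flt3- array in 6065 and the wild-type LSK/Flt3+ array in 4572. Mean levels over the members were 6.68 and 6.63 on the null arrays, 6.95 on the wild-type LSK/Flt3- array and 7.07 on the wild-type LSK/Flt3+ array.

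Between the wild-type fractions, 25 members (64.1%) were higher on the Flt3+ array, where 56.6% of all genes were, and 14 were lower, with a median difference of 0.09 against 0.04 over all genes. Ifi207 was the only member at least 2-fold higher there, where 0.923% of all genes were, and none was 2-fold lower. After Ifi207 the widest gaps were those of Ifit3 (0.70 higher), Oas1a (0.53 higher) and Oasl2 (-0.63). With 1 array each, these values have no replicate check.

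Other genes of the pathway were read in the same way. The 16 measured interferon genes themselves had median differences of 0.19 and 0.08 from wild-type LSK/Flt3- and LSK/Flt3+ cells, none passed limma's adjusted threshold and none had an unadjusted p below 0.05 in either direction. Ifnb1 read between 3.91 and 3.95 on all arrays. Among 16 receptors, kinases and signal inhibitors the medians were -0.02 and 0.02 with 0 called. The receptor chains Ifnar1 (7.05, 6.96, 6.96 and 7.61) and Ifnar2 (9.20, 9.05, 9.29 and 9.67) were highest on the Flt3+ array, and Jak1 read between 10.08 and 10.49. Il10rb, a chain shared with the interferon lambda receptor, was lower against wild-type LSK/Flt3+ cells at an unadjusted limma p of 0.00693 (-1.19, adjusted p = 0.536). None of 7 other genes of the IRF family or its IRF2-binding proteins (Irf2, Irf3, Irf4, Irf5, Irf8, Irf2bp1 and Irf2bp2) was called, with medians of 0.04 and -0.20 over this mixed list.

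Of 20 nucleic acid sensors and adaptors, with medians of 0.13 and -0.10, only Tlr7, the endosomal sensor of single-stranded RNA, was called. It read 3.68 and 3.52 on the null arrays, 4.34 on the wild-type LSK/Flt3- array and 5.32 on the wild-type LSK/Flt3+ array, and was lower than the latter by -1.72 (limma adjusted p = 0.0467). Unc93b1, which carries endosomal Toll-like receptors to their place, read 6.69 and 6.74 on the null arrays and 5.94 and 7.08 on the wild-type arrays, and the cytosolic RNA sensor Ddx58 read 7.76 and 7.35 against 7.48 and 7.79.

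Among 90 other interferon-stimulated genes, 37 (41.1%) were lower on both null arrays than wild-type LSK/Flt3- cells, where 19.9% of all genes were. Relative to wild-type LSK/Flt3+ cells 38 (42.2%) were lower on both, where 25.1% of all genes were. The medians were -0.05 and -0.13, against 0.09 and 0.05 over all genes. Both null values lay below both wild-type values in 30 (33.3%), where 11.7% of all genes showed this. Ms4a6b, a tetraspanning membrane protein gene, was the only one called, lower than in wild-type LSK/Flt3+ cells (-2.41, limma adjusted p = 0.0254), at 6.58 and 6.95 on the null arrays against 8.11 and 9.18. Its relative Ms4a6c read 6.62 and 7.24 against 7.79 and 8.65, and Trim30d read 7.09 and 7.03 against 7.94 and 7.65. Other genes of the list lay the other way: Nt5c3 read 7.79 and 7.77 on the null arrays against 6.92 and 6.67, and Slfn9 read 8.06 and 7.75 against 7.12 and 6.83. At an unadjusted limma p below 0.05, 2 genes of this list (2.22%) were lower and 3 higher against wild-type LSK/Flt3- cells. Of all 19938 genes 259 (1.30%) were lower and 219 higher. Against wild-type LSK/Flt3+ cells 8 (8.89%) were lower and 2 higher, where 460 (2.31%) of all genes were lower and 225 higher.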

How the data were processed

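The table deposited by the authors gives log2 expression of each probe set after RMA (affy 1.23), per the submitters' processing notes. RMA usually equalises arrays, but the array medians here are unequal, so which scaling the values carry is not known. The sources used here give neither background detection nor scan dates. Of 35556 probe sets, 21789 had 1 symbol in the platform annotation, 1621 had several and 12146 none; each gene was read from its single-symbol probe set with the highest mean. Every measured member, and of the other lists the genes past the threshold or with the largest differences, could be named; the levels of Ifnb1, Ifnar1, Ifnar2, Jak1 and Ddx58 were chosen after their values were seen.

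All 4 arrays entered 1 fit in limma 3.58.1 (R 4.3.3), with 3 groups, a mean-dependent prior, 1 residual and 9.01 prior degrees of freedom. Tests were two-sided with Benjamini-Hochberg adjustment over 19938 genes at 0.05. Each lone wild-type array is taken to have the spread of the null pair. On data simulated from the fit's own spread, the fit returned the planted sizes on average, and called genes had the planted direction. The number of false calls varied between simulations. All planted changes were larger than the members' median difference, so the simulations cannot speak to differences of that size. The 12 genes with equal values on both null arrays stayed in the fit. Members and lists were chosen with earlier results of these data known. Settings tried were between-array normalization, the probe set rule, a filter on low values, the prior, the arrays fitted and leaving out each null replicate. The number of arrays limits the precision.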

Additional observations from a re-analysis of the deposited data

How the results depend on the processing

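No member gained or lost a limma call under any of the settings. Normalization moved the medians: against wild-type LSK/Flt3- cells the members' median was -0.31 after quantile normalization, -0.34 with arrays centred on their medians and -0.31 after cyclic loess, and against wild-type LSK/Flt3+ cells it was -0.33, -0.30 and -0.32. The members' median between the wild-type fractions was 0.015 with centred arrays. Leaving out each null replicate gave medians from -0.31 to -0.25 and from -0.34 to -0.30. Over the 4 settings that left all 39 members, between 24 and 29 were lower on both null arrays in either null comparison. The shares of all genes rose too. Relative to wild-type LSK/Flt3+ cells they were 32.8% (quantile normalization, 28 members), 28.5% (centred arrays, 29 members) and 33.1% (cyclic loess, 27 members). Of the 29 members with a mean of at least 6, 20 were lower on both null arrays relative to the Flt3- and 19 relative to the Flt3+ wild-type array. Of the 36 with a mean of at least 5 it was 23 and 24. These filters left 8418 and 12584 of all genes, whose own shares are not given here. All filtered counts therefore stand without a comparison. The count with both null values below both wild-type values, whose alternatives were chosen after seeing the data, lay between 21 and 24 over the former settings, was 17 of 29 and 20 of 36 with the filters, and was 30 and 27 on null replicate 2 and null replicate 1 alone, where 33.2% and 24.9% of all genes showed this.

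Signs turned as follows. Against wild-type LSK/Flt3- cells, quantile normalization gave -0.10 for Oas3, -0.12 for Ifit3, -0.0024 for Stat2, -0.10 for Ifi207 and -0.14 for Cmpk2. Centring gave -0.063, -0.089, -0.084, -0.064 and -0.10 for the same genes, -0.026 for Parp9, -0.089 for Parp14 and -0.033 for Trim30a. Cyclic loess gave -0.11 for Oas3, -0.13 for Ifit3, -0.035 for Stat2, -0.055 for Ifi207 and -0.16 for Cmpk2. Against wild-type LSK/Flt3+ cells Isg20 was at -0.045, -0.027 and -0.024. With 1 null replicate left out, signs turned against wild-type LSK/Flt3- cells for Ifit3 (-0.16 to 0.20), Stat2 (-0.28 to 0.33), Parp9 (-0.16 to 0.33), Parp14 (-0.23 to 0.27), Trim30a (-0.061 to 0.21), Lgals3bp (-0.69 to 0.31), Oas3 (-0.14 to 0.23), Mx1 (-0.34 to 0.13), Dhx58 (-0.44 to 0.042), Ifi203 (-0.33 to 0.24), Ifi207 (-0.10 to 0.18), Cmpk2 (-0.019 to 0.025) and Psmb8 (-0.053 to 0.41). Against wild-type LSK/Flt3+ cells they turned for Ifi35 (-0.51 to 0.015), Parp9 (-0.20 to 0.29), Parp14 (-0.10 to 0.40), Lgals3bp (-0.78 to 0.22), Psmb8 (-0.26 to 0.21), Isg20 (-0.30 to 0.31), Mx1 (-0.40 to 0.068), Stat2 (-0.34 to 0.27), Rsad2 (-0.19 to 0.031), Dhx58 (-0.46 to 0.030), Ifi203 (-0.51 to 0.065), Eif2ak2 (-0.16 to 0.011) and Psmb9 (-0.030 to 0.57). The cause was not tested.

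No paired analysis was possible because the wild-type groups hold 1 array each and the null replicate numbers have no partner. Leaving out a null replicate left no residual degrees of freedom, so it gave values and no test, and the lone wild-type arrays could not be left out. Calls over all genes against wild-type LSK/Flt3- and LSK/Flt3+ cells numbered 4 and 63, and between 2 and 25 and between 22 and 114 over the other settings.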
